A study of Zea mays with 21 samples.

Results

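Transcript counts of wild-type (WT) maize endosperm at 16 days after pollination (16DAP) were compared with those of WT maize leaf at V9, when plants had reached their 9th leaf. The comparison was defined by the labels alone and holds 6 of the 21 libraries of the series, 3 per tissue. It covers 28157 of the 50142 gene IDs in the count table, the ones with enough counts to be tested. The series was made around zb10, a zebra-leaf and white-kernel mutant whose defect its title places in the plastid terminal oxidase, ZmPTOX. Neither WT group carries that mutation, and the labels give no inbred line, leaf part, plant number or treatment for them. Other groups appear only where named: zb10 endosperm at 16DAP, zb10 leaf at V9 and WT leaf at V4 (the 4th-leaf stage), with 3 libraries each. All groups were described in the series design as biological replicates.

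Endosperm is the storage tissue of the cereal kernel. During grain filling it imports sucrose, turns it into starch, and makes zeins, the prolamin storage proteins of maize, on the endoplasmic reticulum. A mature maize leaf exports sucrose made by C4 photosynthesis, in which mesophyll and bundle sheath cells share the work of carbon fixation, and much of its messenger RNA encodes plastid proteins of light capture and carbon metabolism. The count table identifies genes by ID only, and 0 of its 50142 IDs matched the reference table of maize genes used here. Genes are therefore given by ID, no role is assigned to any of them, and the tissue labels could not be checked against named markers. In place of pathways, gene groups were taken from the zb10 libraries, which share no library with the WT comparison, or from the form of the ID.

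Libraries held 33394194 to 42931635 counts in endosperm and 32482762 to 42032400 in V9 leaf, except for leaf replicate 1 with 123050963. Spearman correlations across genes, a description over genes that are not independent replicates, were 0.986 to 0.988 within endosperm, 0.952 to 0.988 within leaf and 0.195 to 0.223 between tissues. Leaf replicate 2 was the library least like the other leaf libraries. Each tissue also held small amounts of transcripts typical of the other. A leaf set of 236 genes and an endosperm set of 129 genes were defined in zb10 as at least 50 CPM (counts scaled to a common library size by TMM over all libraries) in 1 tissue and over 1000-fold less in the other. The leaf set summed to 165, 15.1 and 188 CPM in WT endosperm replicates 1, 2 and 3, against 162255 to 220092 CPM in V9 leaf. Endosperm replicates 1 and 3 were thus the high ones and replicate 2 stood about an order of magnitude lower. Summed endosperm-set levels were 22.6, 55.7 and 13.9 CPM in V9 leaf replicates 1, 2 and 3, against 445413 to 512156 CPM in endosperm. In WT V4 leaf this sum was 12 to 14.3 CPM. For some results that such traces touch, a value without the libraries concerned is given beside them. Counts of genes under 1 or 10 CPM in a tissue and shares of counts include all its libraries. The part of the traces in the results was not tested otherwise.

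**Figure D1:**
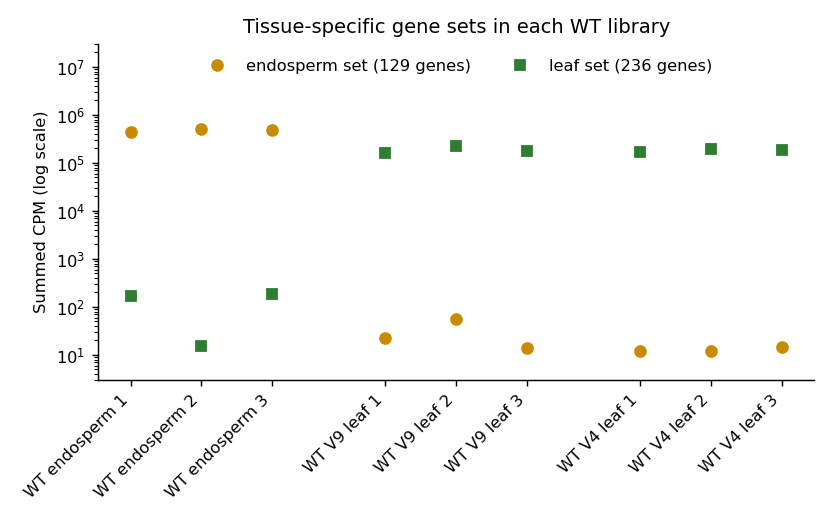
Summed CPM (log scale) of the endosperm set (129 genes, circles) and the leaf set (236 genes, squares) in each WT library, both sets defined in zb10 libraries. Each set is at or above 162255 CPM in its own tissue, and the leaf set in endosperm replicate 2 (15.1 CPM) lies below replicates 1 and 3 (165 and 188 CPM).

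A few transcripts dominated endosperm RNA. The 10 most abundant genes of a library held 26.3, 28.1 and 26.2% of its counts in endosperm and 8.34, 11.9 and 9.67% in V9 leaf. For the 50 most abundant genes the shares were 43.3, 47.6 and 45.6% in endosperm and 17.1, 23 and 18.9% in leaf. The groups did not overlap in either measure, and endosperm was 25.8 percentage points higher for the 50 genes (exact two-sided permutation p = 0.1, the smallest that 3 against 3 libraries allow; 0.13 after Benjamini-Hochberg adjustment over 8 such measures). To reach 50% of all counts took 154, 81 and 114 genes in endosperm and 1067, 707 and 939 in leaf. The number of genes with any count did not separate the tissues, at 31368, 30568 and 32486 in endosperm and 33136, 29355 and 30417 in leaf (exact two-sided permutation p = 0.7). The number of genes at 1 CPM or more was 20328 to 20832 in endosperm and 20570 to 21162 in leaf, with overlapping ranges (exact two-sided permutation p = 0.2).

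**Figure D2:**
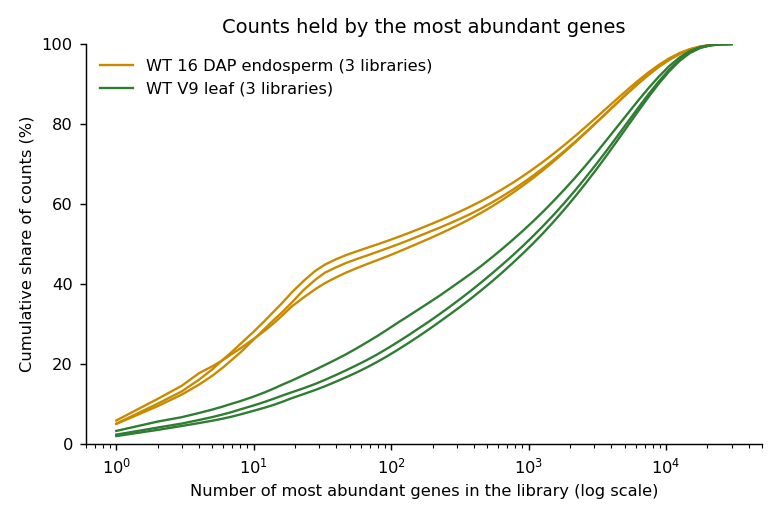
Cumulative share of a library's counts (%) against the number of its most abundant genes (log scale), 1 line per library, for 3 WT endosperm and 3 WT V9 leaf libraries. The endosperm lines reach 47.3 to 51.1% at 100 genes and the leaf lines 22.6 to 29.3%.

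The IDs that took the most counts in each tissue, chosen after their values were seen, differed sharply in level between tissues. Zm00001d035760 stood at 67100, 59400 and 51500 CPM in the endosperm libraries, or 5.15 ± 0.73% of counts (SD, n = 3), and at 0.654, 6.59 and 0.649 CPM in V9 leaf. Zm00001d020592 stood at 61300, 58000 and 58400 CPM in endosperm and at 2.3, 7.4 and 0.783 CPM in leaf. Leaf replicate 2, which held the most endosperm-set transcripts, was the highest leaf library for both, and both had 0 counts in the 3 WT V4 leaf libraries. The ratios of endosperm to V9 leaf means were 22550 and 16950, and without leaf replicate 2 they were 91100 and 38420. In V9 leaf the leading ID was Zm00001d038163, at 18600, 33300 and 22300 CPM, or 2.56 ± 0.662% of counts. It was also abundant in endosperm, at 4460, 4230 and 4570 CPM. Zm00001d046170, the next in leaf at 14200, 23600 and 16600 CPM, had 599, 2 and 693 counts in endosperm replicates 1, 2 and 3 (18.9, 0.0696 and 18.7 CPM), with replicates 1 and 3 above replicate 2 as for the leaf set. By mean CPM, leaf was 1445-fold higher than all endosperm libraries and 260900-fold higher than endosperm replicate 2 alone (exact Poisson 95% interval of its 2 counts, 72230 to 2154000).

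Most genes tested differed between the tissues. In edgeR's quasi-likelihood test with Benjamini-Hochberg adjustment over the 28157 genes, 10559 were higher in endosperm (37.5%) and 10986 lower (39%) at an adjusted p under 0.05, so 76.5% of genes were called. The remaining 6612 genes were not called, and for 3165 of them (11.2% of genes) the 95% interval of the log2 fold change lay within 2-fold in both directions. In all, 4854 genes (17.2%) had an interval within 2-fold. Libraries of the tissues did not overlap for 22870 genes (81.2%). Past 2-fold, 8284 genes were higher (29.4%) and 9329 lower (33.1%). Counts past 16-fold were 3307 higher (11.7%) and 3977 lower (14.1%), with the genes that had 0 counts in 1 tissue (1530 in leaf, 1274 in endosperm) set at the lowest fold that a floor of 3 counts over the group allows. These genes passed the filter only through the other tissue, so they had to differ, and all were called. Among the 25353 genes with a count in both tissues, 9029 were higher (35.6%) and 9712 lower (38.3%). The median over all genes was a log2 fold change of -0.02, and the quartiles were -1.95 and 1.43. Scaling by library size alone moved that median to -0.30, and the calls were 9090 higher and 12293 lower (42.5% of calls higher, against 49%). In bulk tissue, fewer cells of a type and less RNA per cell cannot be told apart.

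**Figure D3:**
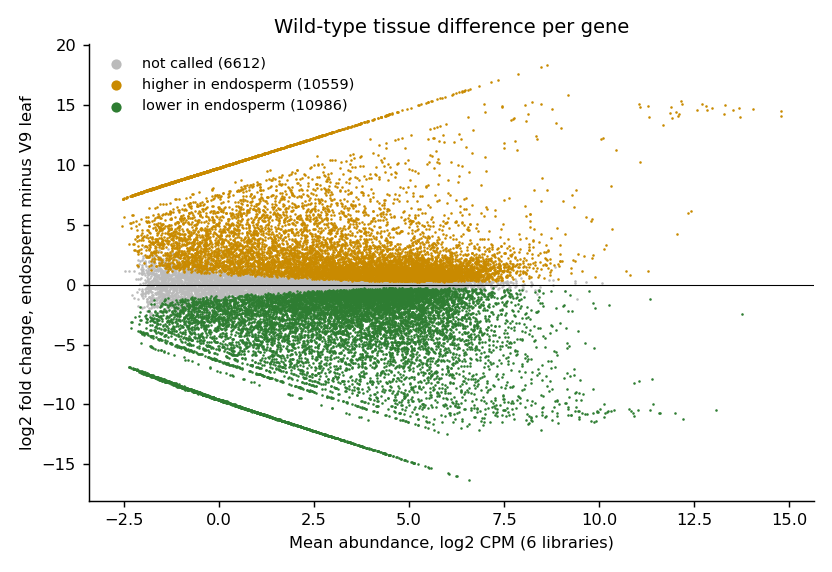
log2 fold change of WT endosperm minus WT V9 leaf against mean abundance (log2 CPM over 6 libraries), 1 point per gene tested. Genes called higher (10559) and lower (10986) in endosperm lie on both sides of 0 at every abundance, and 6612 were not called; the straight outer edges are genes with 0 counts in 1 tissue, whose fitted fold depends on the fit's prior count.

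The size of the difference varied with abundance. Among the 71 tested genes with a mean above 1000 CPM over both tissues, 40 were higher and 30 lower (98.6% called), and 35 and 27 of them had fitted folds past 16. Among the 11222 genes between 10 and 100 CPM, 4251 were higher and 4830 lower (80.9% called). The median absolute log2 fold change was lowest there, at 1.15, and highest in the most abundant class, at 10.73. For the other classes it was 2.79 under 1 CPM, 1.97 between 1 and 10 CPM and 1.86 between 100 and 1000 CPM. In the 5180 genes under 1 CPM 66.2% were called, and the median standard error there was 0.82 on the log2 scale. It was 0.16 between 10 and 100 CPM and 1.0 above 1000 CPM, where the folds were largest.

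Most genes detected were detected in both tissues. Of the genes that reached a mean of 1 CPM, 16757 did so in both tissues, 3907 in endosperm alone and 4328 in V9 leaf alone, which makes 67% of them common to both. Of 10480 genes at 10 CPM or more in endosperm, 745 (7.11%) were under 1 CPM in leaf, and 181 had 0 counts in all 3 leaf libraries. Of 12276 genes at 10 CPM or more in leaf, 1421 (11.6%) were under 1 CPM in endosperm, and 230 had 0 counts in all endosperm libraries. These zeros depended on the library. Among the 12276 leaf genes, 443, 697 and 357 had 0 counts in endosperm replicates 1, 2 and 3, fewest in replicate 3, which had both the most leaf-set transcripts and the most counts. Among the 10480 endosperm genes, 219, 346 and 342 had 0 counts in leaf replicates 1, 2 and 3, fewest in the most deeply sequenced library, while replicate 2, with the most endosperm-set transcripts and the fewest counts, had the most.

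Under limits of an adjusted p under 0.05, libraries that do not overlap and at least 50 CPM in the higher tissue, 4857 genes qualified, and the largest folds belonged to genes with 0 counts on the other side. Zm00001d042011 had 27573, 22952 and 29796 counts in the endosperm libraries (870, 798 and 804 CPM) and 0 in each leaf library, at least 57650-fold higher when 3 counts over the 3 leaf libraries are taken as the floor (edgeR adjusted p = 1.4e-06). Zm00001d019162 had 18449, 26828 and 25459 counts in endosperm and 0 in leaf, at least 50770-fold higher (edgeR adjusted p = 4e-06). Both were also at 0 in the 3 WT V4 leaf libraries. In the other direction, Zm00001d023673 had 28673, 6901 and 7590 counts in V9 leaf (215, 215 and 170 CPM) and 0 in each endosperm library, at least 6682-fold lower in endosperm (edgeR adjusted p = 1.8e-06). Zm00001d035717 had 27707, 3566 and 7456 counts in leaf (208, 111 and 167 CPM) and 0 in endosperm, at least 5996-fold lower (edgeR adjusted p = 9.5e-06). Neither leaf ID had a count in endosperm replicates 1 and 3, where the more abundant leaf transcripts left traces. Both were expressed in WT V4 leaf too, at 59.3 ± 8.18 and 103 ± 6.47 CPM (SD, n = 3).

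The next 3 groups were chosen for their level in zb10, so their direction in WT repeats a difference already seen there. The 100 genes most abundant in zb10 endosperm held 49 ± 1.96% of counts in WT endosperm (SD, n = 3), 4.58 ± 0.547% in WT V9 leaf and 4.05 ± 0.0737% in WT V4 leaf. All 100 were tested; 93 were higher in WT endosperm, 2 lower and 5 not called, beside 37.5% higher and 39% lower over all genes. Their median log2 fold change was 6.06, with quartiles of 2.19 and 14.27, beside -0.02 over all genes. The group was thus uneven: 34 members were under 1 CPM in V9 leaf and 39 were at 100 CPM or more there. The 2 lower members were abundant in both tissues. Zm00001d038163, the leading leaf ID above, was 5.59-fold higher in leaf than in endosperm by mean CPM (log2 fold change -2.47, SE 0.57, edgeR adjusted p = 0.0052). Zm00001d023376 stood at 2040, 1100 and 1770 CPM in endosperm and at 3270, 4680 and 3310 CPM in V9 leaf (log2 fold change -1.19, SE 0.35, edgeR adjusted p = 0.016). Its level in WT V4 leaf was far lower, at 264, 329 and 242 CPM, below every endosperm library. The edgeR call of Zm00001d038163 was lost without endosperm replicate 3 (adjusted p = 0.053) or without replicates 1 and 3 (adjusted p = 0.067), and that of Zm00001d023376 without replicate 3 (adjusted p = 0.061). Over 15 alternatives their edgeR or DESeq2 adjusted p ran from 4.4e-23 to 0.067 and from 2.1e-05 to 0.062, with the direction kept.

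The 100 genes most abundant in zb10 V9 leaf held 24.9 ± 3.46% of counts in WT V9 leaf (SD, n = 3), 22.4 ± 0.939% in WT V4 leaf and 1.73 ± 0.067% in WT endosperm. All were tested; 96 were lower in WT endosperm, 3 higher and 1 not called, and 80 of the 96 were past 16-fold. The median log2 fold change was -9.61, with quartiles of -10.56 and -5.46. Leaving out endosperm replicates 1 and 3, chosen after the traces were seen, gave a median of -10.49. In endosperm, 18 members were under 1 CPM, 69 under 10 CPM and 16 at 100 CPM or more. The lowest folds were those of Zm00001d008706, at 903, 1180 and 943 CPM in leaf with 8, 0 and 25 counts in endosperm, and Zm00001d003767, at 1520, 2650 and 1720 CPM in leaf with 25, 0 and 45 counts in endosperm. Their log2 fold changes were -11.56 (SE 0.72, edgeR adjusted p = 6.6e-06) and -11.45 (SE 0.93, edgeR adjusted p = 2.4e-05). Against endosperm replicate 2 alone, where both had 0 counts, they were at least 9150-fold and 16650-fold lower by a floor of 3 counts in that library.

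Among the leaf-abundant genes, the 2 with the largest folds towards endosperm were high in both tissues. Zm00001d002325 stood at 2570, 2390 and 2220 CPM in endosperm and 945, 1290 and 1070 CPM in V9 leaf (log2 fold change 1.13, SE 0.25, edgeR adjusted p = 0.004). In WT V4 leaf it was at 121, 92.3 and 105 CPM, so that its level ran from endosperm through V9 to V4 leaf with no overlap between groups. Zm00001d031168 stood at 2330, 4100 and 4260 CPM in endosperm and 1930, 1080 and 2020 CPM in V9 leaf (log2 fold change 1.10, SE 0.39, edgeR adjusted p = 0.032). Its WT V4 leaf libraries were at 4140, 4880 and 5520 CPM, in part above every endosperm library. This call was lost in 6 of 15 alternatives, among them leaving out endosperm replicate 2 or 3 or leaf replicate 3 (adjusted p of 0.071, 0.11 and 0.053). Over all 15 its adjusted p ran from 0.00067 to 0.11 and its log2 fold change from 0.80 to 1.34.

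Genes chosen for abundance in both tissues had smaller folds, which the choice itself favours. Of the 230 IDs among the 1000 most abundant of both zb10 tissues, 229 were tested in WT; 95 were higher in endosperm, 56 lower and 78 not called. The share called, 65.9%, was below the 76.5% of all genes. Of the 229, 101 had a 95% interval within 2-fold, beside 17.2% of all genes. Together they held 9.86 ± 0.791% of counts in WT endosperm and 10.2 ± 0.0865% in V9 leaf (SD, n = 3). Their median log2 fold change of 0.21 became -0.06 with library size as the only scaling, so that its sign depended on the scaling. The ID not tested was Zm00001d042453, with 4, 6 and 0 counts in WT endosperm and 8, 12 and 6 in WT V9 leaf. In zb10 it had 19597, 0 and 10001 counts in endosperm and 9837, 6093 and 5817 in V9 leaf.

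Within this group the largest folds were again towards endosperm. Zm00001d045042 stood at 12200, 9600 and 10400 CPM in endosperm and at 261, 87.7 and 159 CPM in V9 leaf (log2 fold change 6.0, SE 0.59, edgeR adjusted p = 6.4e-05). Zm00001d031727 stood at 10200, 6500 and 8300 CPM in endosperm and at 425, 419 and 489 CPM in leaf (log2 fold change 4.25, SE 0.40, edgeR adjusted p = 4.8e-05). Its leaf level was steady across stages, at 444 ± 38.8 CPM in V9 and 458 ± 23.2 CPM in V4 (SD, n = 3). The lowest folds were those of Zm00001d038163 and of Zm00001d015569, which stood at 241, 169 and 233 CPM in endosperm and at 761, 1450 and 796 CPM in leaf (log2 fold change -2.21, SE 0.31, edgeR adjusted p = 4e-04).

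Loci named newGene in the table were called higher in endosperm more often than lower. Of 10819 such IDs 4314 were tested; 2074 were higher (48.1%) and 1121 lower (26%), beside 37.5% and 39% over all genes. These include 848 higher loci with 0 counts in the 3 leaf libraries and 257 lower loci with 0 counts in endosperm, which passed the filter only through the other tissue and so had to differ. Among the 3209 new loci with a count in both tissues 1226 were higher (38.2%) and 864 lower (26.9%), beside 35.6% and 38.3% of the 25353 genes of that kind. New loci held 5.16, 7.01 and 7.22% of counts in endosperm and 1.99, 1.84 and 1.91% in V9 leaf, without overlap (exact two-sided permutation p = 0.1, the smallest possible). In WT V4 leaf they held 3.24 ± 0.572% (SD, n = 3). The median log2 fold change of all 4314 new loci tested was 0.88. Over 16 alternatives it ran from 0.52 with only endosperm replicate 2 kept to 1.42 without V9 leaf replicate 1 or 3. These medians include the loci with 0 counts in 1 tissue, whose direction was set by the filter. No median was taken over the loci with a count in both tissues, so its sign there is not known. Of 431 new loci at 10 CPM or more in endosperm 37.8% were under 1 CPM in leaf, against 7.11% over all genes. The leaf side went the same way: of 330 new loci at 10 CPM or more in leaf 21.2% were under 1 CPM in endosperm, against 11.6% over all genes.

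Zea_mays_newGene_17845 alone held 1.85 ± 0.474% of endosperm counts (SD, n = 3), at 14900, 23400 and 25700 CPM, with 44, 48 and 14 counts in V9 leaf (log2 fold change 15.02, SE 1.18, edgeR adjusted p = 2e-05). Zea_mays_newGene_17036 was at 5350, 7750 and 10600 CPM in endosperm with 25, 19 and 6 counts in leaf (log2 fold change 14.86, SE 0.85, edgeR adjusted p = 4.6e-06). In CPM, leaf replicate 2 was highest for both, and without it the ratios of means were 66220 and 49120 in place of 29940 and 25990. On the leaf side, Zea_mays_newGene_22515 had 9662, 3695 and 3582 counts in V9 leaf and 0 in endosperm, at least 2622-fold lower there (edgeR adjusted p = 6.6e-06). Zea_mays_newGene_5098 had 6245, 4186 and 2028 counts in leaf and 0 in endosperm, at least 1929-fold lower (edgeR adjusted p = 0.00014). The former was at 89.4 ± 10.1 CPM in WT V4 leaf and 89.2 ± 22.6 in V9, the latter at 3.11 ± 0.276 and 74.2 ± 48.5 (SD, n = 3).

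**Figure D4:**
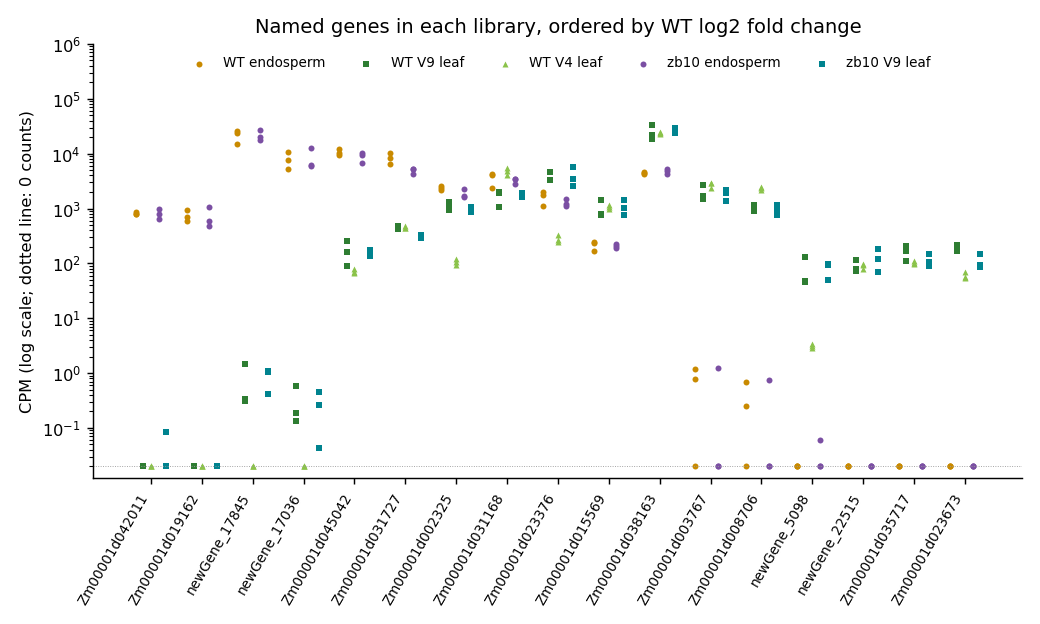
CPM (log scale, the dotted line marks 0 counts) of the named IDs in each library of WT endosperm, WT V9 leaf, WT V4 leaf, zb10 endosperm and zb10 V9 leaf, ordered from the highest to the lowest WT log2 fold change. Zm00001d031168 and Zm00001d023376, near the middle, are above 1000 CPM in every library of both WT tissues compared, which not all of their neighbours are. The IDs at the ends have 0 counts in 1 of these tissues.

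The same comparison in zb10, with 6 other libraries, gave 10315 genes higher in endosperm and 10947 lower of 28308 tested (36.4% and 38.7%, 75.1% in all). Of the 10559 genes higher in WT, 9206 were also called higher in zb10, which is 87.2% of the WT list and 89.2% of the zb10 list. Of the 10986 lower in WT, 9870 were also lower in zb10, 89.8% and 90.2% of the lists. In all, 10 genes were called in opposite directions. Genes called higher in zb10 endosperm held 81.2 ± 0.947% of counts in WT endosperm and 15 ± 1.22% in WT V9 leaf, and those called lower held 8.81 ± 0.519% and 73.2 ± 2.13% (SD, n = 3).

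**Figure D5:**
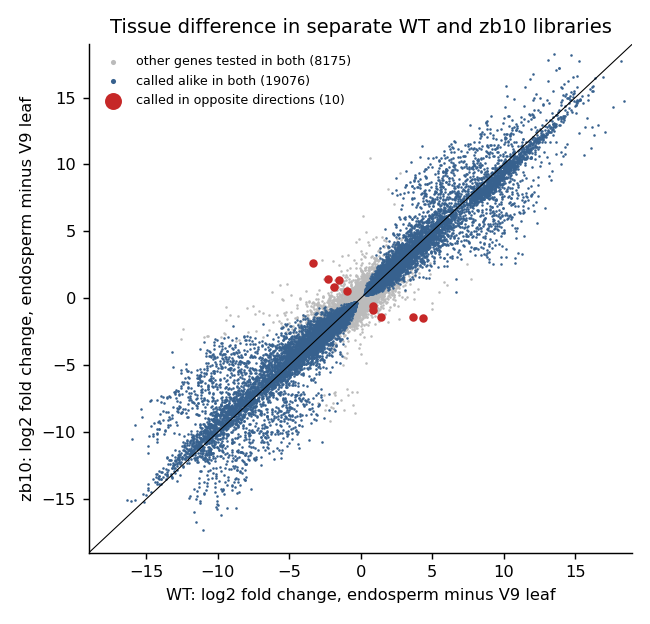
log2 fold change of endosperm minus V9 leaf in WT (horizontal) and zb10 (vertical), which share no library, 1 point per gene tested in both; the line marks equal values. Of these, 9206 were called higher in both, 9870 lower in both and 10 in opposite directions.

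The difference between the tissue effects of zb10 and WT was tested itself, over 12 libraries. It passed in 12 of 30640 genes (0.0392%). The log2 fold change of endosperm minus leaf was higher in zb10 than in WT in 3 (0.00979%) and lower in 9 (0.0294%). These signs are of the tissue difference and not of the level of a gene in zb10. The newGene IDs supplied 8 of these 12. In the WT comparison such IDs were 4314 of 28157 genes tested. Their number among the 30640 was not counted, so whether 8 of 12 exceeds their share was not tested. At an unadjusted p under 0.05, 2347 of the 30640 genes passed (7.66%). Over the alternatives run the count of adjusted calls ranged from 5 to 198. Of the 12, 3 met the limit of 50 CPM. Zm00001d008808 had 0 counts in WT endosperm and 10, 12 and 6 counts in zb10 endosperm, while V9 leaf held 62.9 ± 0.589 CPM in WT and 64.4 ± 4.47 in zb10 (SD, n = 3; edgeR adjusted p of the difference = 0.0087). Zea_mays_newGene_10916 was lower in WT endosperm, at 5.34, 7.89 and 6.26 CPM, than in WT leaf, at 58.9, 47.3 and 51.4 CPM (log2 fold change -3.0, SE 0.18, edgeR adjusted p = 5.3e-06). In zb10 it was at 37.9 ± 9.29 CPM in endosperm and 49.9 ± 6.59 in leaf, a difference of 2.62 between the log2 fold changes (SE 0.27, edgeR adjusted p = 0.0044). Zm00001d002338 was higher in WT endosperm, at 43.7, 49.9 and 55.4 CPM, than in WT leaf, at 13.1, 12.8 and 12.7 CPM (log2 fold change 1.97, SE 0.12, edgeR adjusted p = 6.6e-06). Its log2 fold change in zb10 was 0.69 (SE 0.12), with zb10 leaf at 39.2 ± 3.73 CPM (difference -1.27, SE 0.16, edgeR adjusted p = 0.02). The lowest adjusted p values, picked after they were seen, belonged to Zea_mays_newGene_19853 and Zea_mays_newGene_19852, which were higher in WT endosperm than in WT leaf (7.94 ± 1.80 against 0.645 ± 0.0592 CPM and 15.1 ± 2.68 against 0.736 ± 0.232 CPM) and lower in zb10 endosperm than in zb10 leaf (6.36 ± 0.268 against 17.1 ± 3.35 CPM and 7.43 ± 1.95 against 21 ± 3.48 CPM; SD, n = 3; edgeR adjusted p of the difference = 7.2e-05 and 7.5e-05).

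Zm00001d001909, named after its values were seen because it was lower in zb10 leaf, was at 16, 15.2 and 18.7 CPM in WT endosperm and at 58.5, 85.8 and 67.5 CPM in WT V9 leaf (log2 fold change -2.07, SE 0.17, edgeR adjusted p = 2.7e-05). In zb10 it was below every WT library of the same tissue, at 7.99, 5.83 and 10 CPM in endosperm and at 13.5, 16.1 and 15.5 CPM in V9 leaf. Its log2 fold change in zb10 was -0.91 (SE 0.22), and the difference between genotypes, 1.17, did not pass (SE 0.27, edgeR adjusted p = 0.37). Set against WT V4 leaf in place of V9, the same endosperm libraries gave 11402 genes higher and 11699 lower of 28354 tested (81.5% called); both comparisons share the endosperm libraries, so their lists were not overlapped.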

How the data were processed

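RNA from column kits was made into SMARTer mRNA-Seq libraries, per the labels' protocols. The authors deposited raw counts in 1 table; aligner, counter, build, annotation and the treatment of reads shared by near-identical genes: not given in the sources used here. Its headers write zb9 for zb10 and 3L for the younger leaf, V4 in the labels, and were assigned by genotype, tissue and stage. Members and gene groups were chosen with earlier results of these data known. Planned pathway lists could not be used, since 0 of 50142 IDs matched the reference table (maize NAM assembly). The fallback rule named, per group, the 2 IDs of largest and 2 of smallest fold within the limits given above.

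The 6 WT libraries were fitted with edgeR 4.0.16 (R 4.3.3) by its quasi-likelihood test after TMM scaling. Genes had to pass filterByExpr (count of 10, total of 15), and p-values were adjusted by Benjamini-Hochberg over all genes tested. A standard error is the log2 fold change divided by the root of F. Alternatives were DESeq2 1.42.0, other scalings and filters, a replicate block, all 21 libraries in the fit, removal of abundant genes and leaving out each library. The fit was tested on simulated counts. Depth was 32482762 to 123050963 counts per library. Floors and the exact Poisson interval cover counting error only. Intervals of log2 fold changes rest on the standard error of the fit, which includes the spread between replicates. Chi-square per degree of freedom between replicates was 23.65 to 142, so none were duplicates. P-values of the fits set the difference between groups against the spread between these libraries, for which the labels give no plant number.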

Additional observations from a re-analysis of the deposited data

Results flagged for a closer look

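The tissue difference itself differed between zb10 and WT in 12 genes by the test of the interaction, and these were picked out for that reason. For Zm00001d008808 the difference of log2 fold changes was 6.89 (SE 0.70, edgeR adjusted p = 0.0087); since WT endosperm had 0 counts and zb10 endosperm 6 to 12 per library, this fitted size depends on the prior count. For Zea_mays_newGene_10916 the difference was 2.62 (edgeR adjusted p = 0.0044), and for Zm00001d002338 it was -1.27 (edgeR adjusted p = 0.02). With DESeq2 the adjusted p values were 0.0015, 1.4e-14 and 7.9e-09, while in the other alternative fit of all 12 libraries Zm00001d008808 and Zm00001d002338 lost their calls.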

How the results depend on the processing

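The WT counts of 10559 higher and 10986 lower genes kept within 1.5 times under every alternative run, from 7854 to 12372 higher and from 9420 to 12323 lower, the low ends with endosperm replicates 1 and 3 both left out (an alternative added after seeing the data that leaves 1 endosperm library, assumed to vary like the leaf libraries). No call of the main test was reversed in any of the 16 alternatives on these tissues. With the replicate block 10016 and 10397 genes were called and 94.2% of calls were kept. No pairing of the tissues by replicate number was seen. Deviations from group means correlated at 0.01, -0.05 and -0.04 for the same numbers, and at -0.07 to 0.07 for different ones. Such values cannot tell whether libraries of the same number share a plant or batch.

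With library size alone the median of genes abundant in both tissues turned to -0.0646, that of new loci was 0.592 and that of reference-style IDs -0.414. New loci also moved to 1.33 with no filter, 0.681 with at least 1 CPM in 3 libraries, 1.4 with DESeq2, 0.552 with all 21 libraries, 1.06 with the 50 most abundant genes of each tissue removed, 0.521 without endosperm replicates 1 and 3, and 0.702 to 1.42 on leaving out 1 library. Removing those abundant genes gave 3.06 for the endosperm-abundant and -7.72 for the leaf-abundant group, by construction, since it removes their members. Without endosperm replicates 1 and 3 the leaf-abundant median was -10.5 and that of reference-style IDs -0.287; leaving out 1 library gave -0.182 to -0.0501 for the latter. For the other shifts the cause was not tested. Differences between genotypes in the tissue effect passed in 198 genes with DESeq2, in 5 with the replicate block (adjusted p of 0.049 for Zea_mays_newGene_10916, 0.089 for Zm00001d008808 and 0.099 for Zm00001d002338), and in 8 to 16 on leaving out 1 library, 8 to 11 of them among the 12. The block also took the calls of Zm00001d023376 (adjusted p = 0.062) and Zm00001d031168 (adjusted p = 0.085). WT log2 fold changes of the named IDs kept their call 394 times over the alternatives and lost it 10 times, with 0 changes of sign.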

Other observations

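Some of the most abundant endosperm transcripts carry neighbouring ID numbers. Of the 97 reference-style IDs among the 100 genes most abundant in zb10 endosperm, 18 (18.6%) had another member within 10 ID numbers. The number was 6 of 100 among those most abundant in zb10 V9 leaf. In the larger group abundant in both zb10 tissues it was 33 of 228 (14.5%). The share in a list of this size drawn from all IDs was not computed, so whether 18.6% exceeds it was not tested. The 18 form 5 runs. The 5 members between Zm00001d048809 and Zm00001d048817 held 4.38 ± 1.46% of WT endosperm counts (SD, n = 3) and the 6 between Zm00001d048847 and Zm00001d048852 held 3.45 ± 0.576%. Zm00001d020591 and Zm00001d020592 together held 6.6 ± 0.205%, and 3 members between Zm00001d019155 and Zm00001d019162 held 3.2 ± 0.472%. In WT V9 leaf these 4 runs held 0.000183 to 0.000422% of counts. The other run, 2 members between Zm00001d033931 and Zm00001d033937, held 0.524 ± 0.083% of WT endosperm counts and 0.00357% in leaf. ID numbers were read as numbers only, without genome positions, and how reads shared by similar genes were counted is not known, so the split of counts among the members of a run is uncertain.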
